A study of Mus musculus with 9 samples.

Results

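The genes described here are the 34 that carry glucose from the cell surface to pyruvate, lactate and the mitochondrial pyruvate dehydrogenase: glucose transporters, the enzymes of glycolysis, the lactate dehydrogenases, the lactate transporters, and pyruvate dehydrogenase with its kinases. They were taken by symbol from a fixed list of members, and all 34 were among the 14479 genes of the deposited expression matrix. The 9 RNA libraries came from heart ventricles of the CD-1 strain of mouse, collected shortly after birth. In 3 libraries the pups had undergone apical resection, the removal of the tip of the ventricle, together with left vagotomy, the cutting of the left vagus nerve. In 3 libraries they had undergone apical resection alone, and in 3 libraries sham surgery. All 3 groups were operated on postnatal day 1 and collected on postnatal day 2, with total RNA taken from the snap-frozen bottom of the ventricle, so each group had been through an operation and none was unoperated. The labels do not say whether a library is 1 pup or a pool, or whether libraries came from separate litters, and p-values therefore reflect only how far these samples spread.

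Glycolysis splits glucose into pyruvate in the cytosol and yields ATP without oxygen; pyruvate is then reduced to lactate or oxidised in mitochondria after the pyruvate dehydrogenase complex converts it to acetyl-CoA. The fetal heart depends largely on glycolysis and lactate, and the heart turns to fatty acid oxidation in the days after birth. Most steps have several isozymes from separate genes, some of them typical of muscle (Slc2a4, Pfkm, Pgam2, Eno3) and some found widely (Slc2a1, Hk1, Pgam1, Eno1).

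Expression is in FPKM, a level per transcript length, so levels of different genes can be set side by side; no read numbers stand behind them here. Group values are mean ± SD over n = 3 libraries. Changes are differences of log2(FPKM + 1), given with a standard error (SE), and come out too small for genes near or under 1 FPKM. Adjusted p-values come from limma, two-sided, with Benjamini-Hochberg adjustment over the 13249 genes that averaged 1 FPKM or more, and the threshold was 0.05. All 34 genes passed that filter. The median over listed genes was 7.52 to 8.29 FPKM per library, while the summed FPKM of the 34 genes ran from 5605 in resection replicate 2 to 11039 in resection with left vagotomy replicate 3. Resection replicate 2 was the lowest of the 9 libraries for 10 of the 34 genes (14.6% of all tested genes), and resection with left vagotomy replicate 3 was the highest for 12 of them (25.4% of all tested genes). All 10 cardiomyocyte markers were in the matrix. They summed to 15195 to 25345 FPKM after resection and 22376 to 25185 FPKM after sham surgery. Myh6 and Actc1 were listed at 0 in all 3 libraries of resection with left vagotomy, where the authors' deposited table marks them as having too many fragments to estimate. Without those 2, the sums there were 18311, 19325 and 41210 FPKM in replicates 1, 2 and 3, and cannot be set against the other groups. The part of this spread in the levels of the 34 genes was not tested. The tissue label therefore rests on the other 8 markers in those libraries.

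Pkm and Gpi1 were the 2 genes of the pathway that rose after resection with left vagotomy relative to resection alone, and none fell. Among all tested genes 1.97% rose and 1.55% fell in that comparison. At an unadjusted p under 0.05, limma had 8 of the 34 genes higher and 1 lower, against 13.1% of all tested genes higher and 11.1% lower. For 8 genes (Hk1, Hk2, Gpi1, Pfkp, Tpi1, Pgam2, Eno1 and Pkm) all 3 libraries of resection with left vagotomy lay above all 3 of resection, and for 3 genes (Slc16a1, Pdk3 and Pdhb) they lay below; such separation held for 14.0% of all tested genes upwards and 12.2% downwards. The log2 changes of the 34 genes ran from -0.90 to 1.95 with a median of 0.23, beside a median of 0.02 over all tested genes, and 22 of the 34 were above 0. When the replicate number was added as a block, 5 genes rose (Pkm, Gpi1, Hk1, Hk2 and Slc16a3) and none fell. Calls over all tested genes, either way, then went from 466 to 1277. Leaving out 1 library changed the count of 2: it was 4 without resection replicate 1 and 0 without any 1 of the other 8 libraries.

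Resection alone against sham gave no gene of the 34 past the threshold in either direction, where 0.287% of all tested genes rose and 0.00755% fell. At an unadjusted p under 0.05 limma had 3 of the 34 higher (Eno2, Slc16a3 and Pdk4) and 0 lower, beside 3.68% and 2.21% of all tested genes. The same 3 genes had all 3 resection libraries above all 3 sham libraries, a separation seen for 6.36% of all tested genes, and 0 genes had them below, where the share of all tested genes was 4.45%. The median log2 change was -0.07, against -0.01 over all tested genes.

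After resection with left vagotomy 4 genes, Hk1, Eno2, Pkm and Slc16a3, rose relative to sham, and 1, Slc16a1, fell. Of all tested genes 5.81% rose and 4.26% fell in that comparison. Groups did not overlap for 11 genes upwards and 5 downwards (19.7% and 17.0% of all tested genes), and the median log2 change was 0.36 against 0.03. Comparisons that have a group in common share its libraries and are not independent of each other. With 1 library left out, the 4 genes that rose became 0 to 6: 0 without resection with left vagotomy replicate 1, sham replicate 2 or sham replicate 3, 1 without resection with left vagotomy replicate 3, 2 without its replicate 2, and 6 without resection replicate 1. The 1 gene that fell became 2 without resection replicate 1 or resection replicate 2, and 0 without any library of resection with left vagotomy, sham replicate 2 or sham replicate 3. A test of any difference among the 3 groups, limma's moderated F-test, passed for 4 of the 34 genes (Gpi1, Eno2, Pkm and Slc16a3) and for 5.89% of all tested genes. That count of 4 was 5 without resection replicate 1, 2 without resection replicate 2 or 3, 1 without sham replicate 1, and 0 without any 1 of the other 5 libraries.

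**Figure D1:**
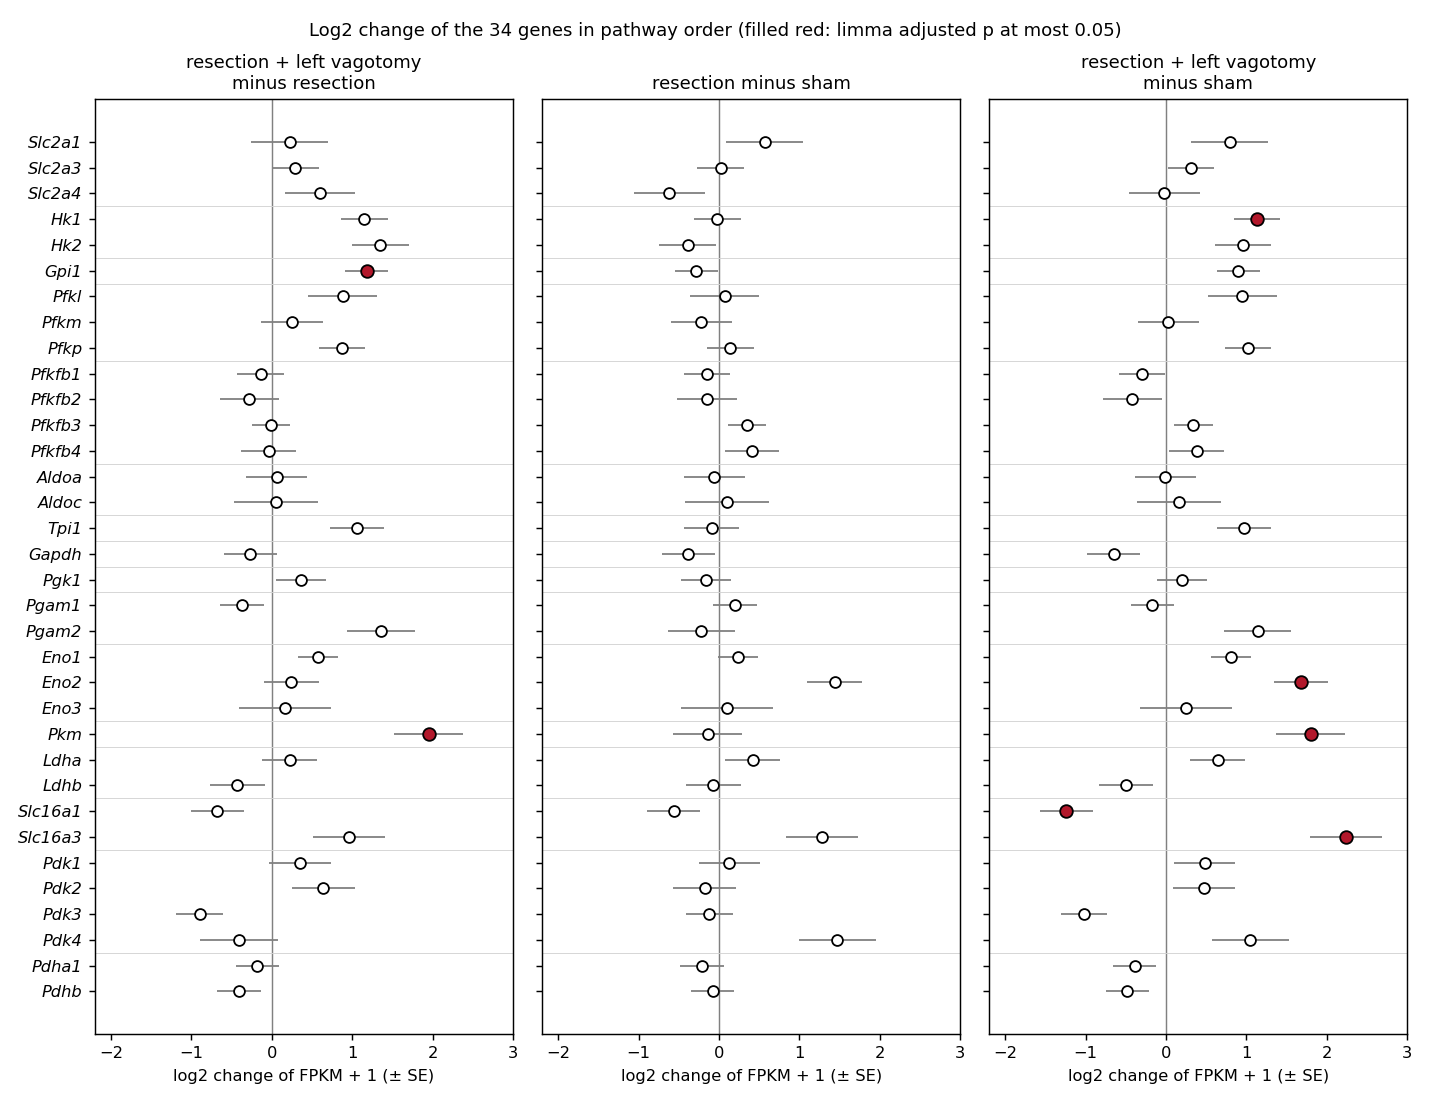
Log2 change of FPKM + 1 (horizontal axis, bars are ± SE) of the 34 genes in pathway order from glucose uptake at the top to pyruvate dehydrogenase at the bottom, for the 3 comparisons; filled red points have a limma adjusted p of at most 0.05. Pkm and Gpi1 are filled in the left panel, no gene in the middle panel, and Hk1, Eno2, Pkm, Slc16a3 and Slc16a1 in the right panel.

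**Figure D2:**
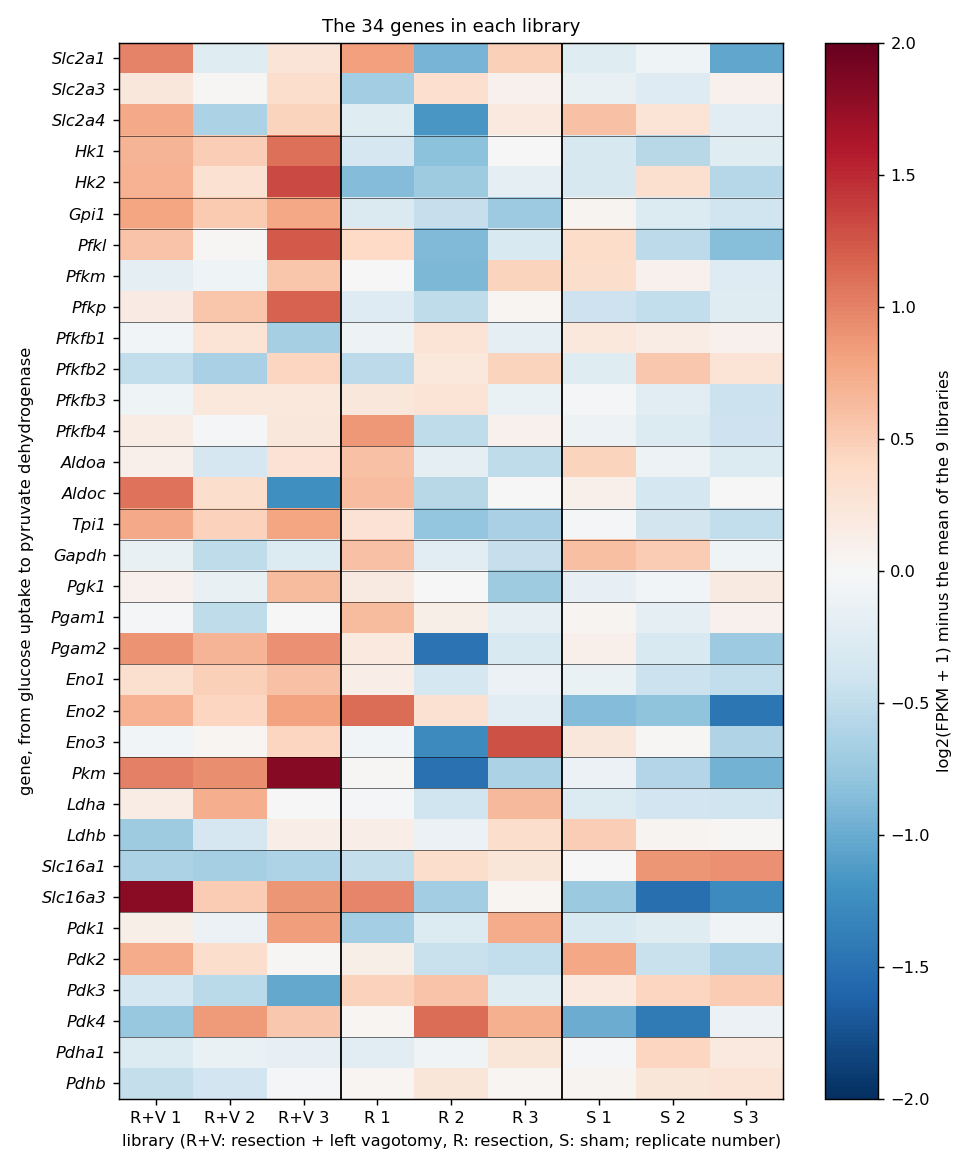
Level of each of the 34 genes (rows, pathway order) in each of the 9 libraries (columns), as log2(FPKM + 1) minus the gene's mean over the 9 libraries; red is above the mean and blue below. Resection replicate 2 is the lowest of the 9 libraries for 10 genes and resection with left vagotomy replicate 3 the highest for 12.

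Base composition moved with the libraries. Across all genes, log2 level relative to the mean of the 9 libraries changed per 10 points of transcript GC content by 0.376, 0.145 and 0.294 in the 3 libraries of resection with left vagotomy, by 0.372, -0.494 and -0.186 in those of resection, and by 0.297, -0.330 and -0.476 in those of sham. The 34 genes had a median GC content of 52.7%, against 49.6% over all tested genes. The 23 genes at 50% GC or more had a median log2 change of 0.25 for resection with left vagotomy against resection, beside 0.22 for all genes of that class. The 11 genes under 50% had a median of -0.18, beside -0.14 for all genes of that class. With a trend in GC content and transcript length removed from each library, an alternative chosen after seeing the data, the medians became 0.11 and 0.02. Pkm and Gpi1 stayed past the threshold with that trend removed and were joined by Hk2, Tpi1 and Pgam2, with 1328 of all tested genes then called in place of 466. Where removing the trend changed a call, the value is given with the gene.

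**Figure D3:**
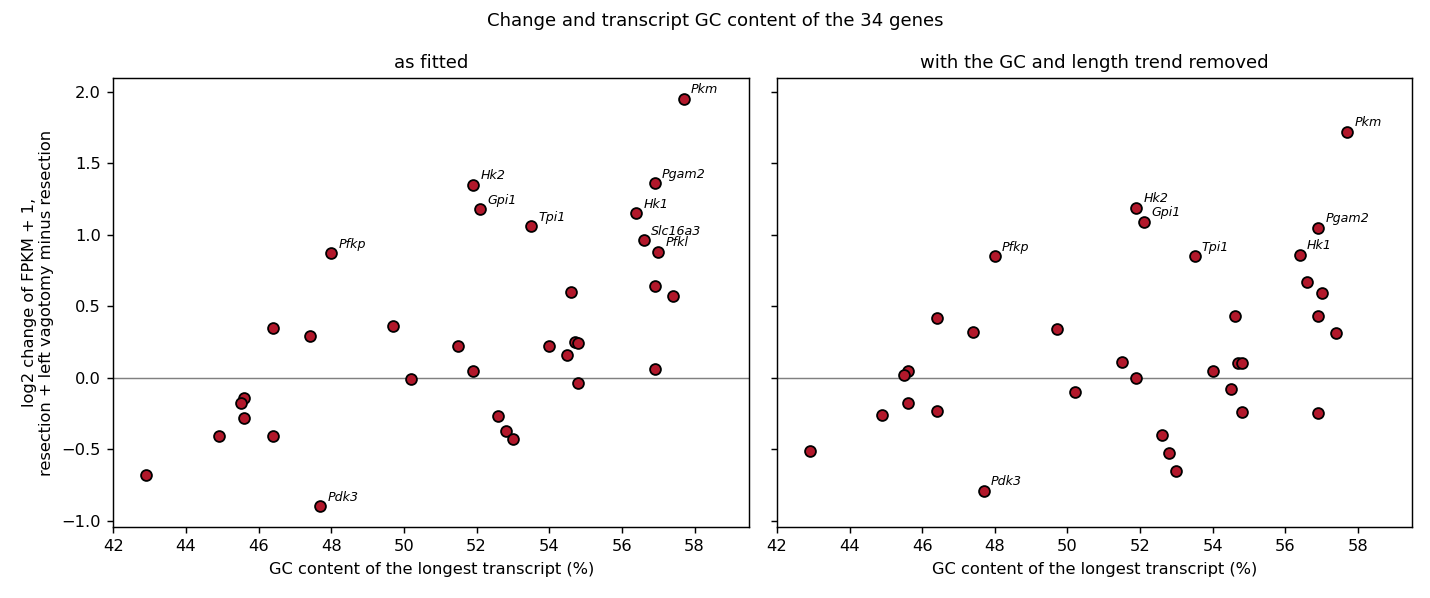
Log2 change of FPKM + 1 for resection with left vagotomy minus resection (vertical axis) against the GC content of the longest transcript in percent (horizontal axis), 1 point per gene, as fitted on the left and after removal of the GC and length trend on the right. Pkm, at 57.7% GC, is at 1.95 on the left and 1.72 on the right.

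The promoters of 4 genes are shown because these genes passed a test at the entry of the pathway (Hk1), at its end (Pkm) and in opposite directions at lactate transport (Slc16a3 and Slc16a1). Each window runs from 250 bases before to 50 bases after an annotated start, from RefSeq (GRCm38.p6), 5′ to 3′ on the gene's strand, and capitals mark ACGTG or GCGTG, the core of the hypoxia response element, read on either strand.
Pkm, chr9:59656977-59657276, plus strand: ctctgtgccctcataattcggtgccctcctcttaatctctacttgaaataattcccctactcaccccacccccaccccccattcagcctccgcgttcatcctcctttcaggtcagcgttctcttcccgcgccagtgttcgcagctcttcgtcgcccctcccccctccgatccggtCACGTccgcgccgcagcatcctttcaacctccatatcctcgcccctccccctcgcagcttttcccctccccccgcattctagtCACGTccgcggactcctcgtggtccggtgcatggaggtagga
Hk1, chr10:62340372-62340671, minus strand: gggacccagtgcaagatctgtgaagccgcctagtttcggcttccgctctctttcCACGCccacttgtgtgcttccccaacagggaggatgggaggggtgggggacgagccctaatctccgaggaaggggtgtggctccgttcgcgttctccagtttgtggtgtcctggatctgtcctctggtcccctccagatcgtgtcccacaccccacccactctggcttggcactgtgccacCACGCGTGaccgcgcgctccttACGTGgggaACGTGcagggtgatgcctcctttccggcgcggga
Slc16a3, chr11:120948817-120949116, plus strand: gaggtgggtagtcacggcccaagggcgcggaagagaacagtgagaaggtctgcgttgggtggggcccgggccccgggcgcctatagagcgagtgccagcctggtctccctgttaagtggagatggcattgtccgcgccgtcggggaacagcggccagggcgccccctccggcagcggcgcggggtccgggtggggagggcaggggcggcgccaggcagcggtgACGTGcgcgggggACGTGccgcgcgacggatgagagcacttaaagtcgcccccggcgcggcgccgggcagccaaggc
Slc16a1, chr3:104638414-104638713, plus strand: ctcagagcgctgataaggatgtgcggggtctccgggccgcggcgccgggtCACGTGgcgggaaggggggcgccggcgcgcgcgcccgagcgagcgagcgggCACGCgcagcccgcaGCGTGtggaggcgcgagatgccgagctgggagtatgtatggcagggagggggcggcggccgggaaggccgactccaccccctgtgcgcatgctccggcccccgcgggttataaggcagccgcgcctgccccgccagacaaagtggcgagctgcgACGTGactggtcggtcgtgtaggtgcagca
The Pkm window holds ACGTG 2 times, the Hk1 window holds ACGTG 2 times and GCGTG 3 times, the Slc16a3 window holds ACGTG 2 times, and the Slc16a1 window holds ACGTG 3 times and GCGTG 2 times; in Slc16a1 an ACGTG on each strand belongs to a single CACGTG, the E-box, which contains ACGTG, and in Hk1 a GCGTG on each strand overlaps in CACGCGTG. A second annotated window of Pkm and one of Hk1 hold neither motif. Of the 34 genes, 32 had a window, and 28 of these 32 (87.5%) held ACGTG or GCGTG in at least 1 of their windows, against 46.7% of 27025 genes. By window the share was 74.5% of 51, against 43.8% of all 32851 windows, and the windows of the 34 genes had a median GC content of 60.3% against 52.7%. Gpi1, Tpi1, Pgam2 and Eno2, whose levels are given below, were the 4 genes with neither motif in these windows. Of these, Gpi1 and Eno2 passed the threshold in a comparison, and Tpi1 and Pgam2 did not. Any part of the motifs in the levels was not tested. A match of letters is not a binding site.

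Glucose enters heart cells through Slc2a4 (GLUT4), the transporter moved to the surface by insulin, and Slc2a1 (GLUT1), the basal transporter that is high in the fetal heart. Slc2a4 was at 147, 55.2 and 118 FPKM after resection with left vagotomy, at 72.6, 37.9 and 98.6 FPKM after resection and at 130.2, 105 and 73.4 FPKM after sham surgery. The groups overlapped, and limma's adjusted p was 0.439 for resection with left vagotomy against resection. Slc2a1 averaged 42.4 ± 18.8 FPKM after resection with left vagotomy, 38.6 ± 20.6 FPKM after resection and 23.6 ± 7.78 FPKM after sham surgery, with overlapping libraries, and Slc2a3 (GLUT3) stayed between 1.84 and 4.83 FPKM in all 9 libraries. The authors' deposited table called Slc2a1 higher after resection than after sham (q = 0.00732), where limma's adjusted p was 1.00. The balance of the 2 main transporters, taken as the log2 ratio of Slc2a4 to Slc2a1 in each library, was 1.22, 1.06 and 1.65 after resection with left vagotomy, 0.38, 1.25 and 1.16 after resection, and 2.31, 1.82 and 2.31 after sham surgery. Slc2a4 thus exceeded Slc2a1 in all 9 libraries, and by less in every resected library than in any sham library. The difference in means was -0.84 between resection with left vagotomy and sham and -1.22 between resection and sham, each with an exact permutation p of 0.1, the smallest that 3 against 3 libraries allows (adjusted over 33 ratio comparisons, 0.3).

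Hexokinase traps glucose as glucose 6-phosphate, with Hk1 the widespread isozyme and Hk2 the insulin-regulated isozyme of muscle. Hk1 (chr10:62268855-62379908, GRCm38) was at 118, 104 and 158 FPKM after resection with left vagotomy, at 57.6, 41.0 and 72.9 FPKM after resection and at 58.2, 49.7 and 61.7 FPKM after sham surgery. Every library of resection with left vagotomy lay above the 6 others, which overlapped each other. Hk1 rose 2.24-fold against sham (log2 change 1.13, SE 0.29, limma adjusted p = 0.0362). Against resection its log2 change was 1.15 (SE 0.29, limma adjusted p = 0.0558), and 0.0220 with the replicate number as a block. The call against sham was lost without resection with left vagotomy replicate 1, 2 or 3 (limma adjusted p = 0.0723, 0.0568 and 0.0941), without sham replicate 1, 2 or 3 (0.0583, 0.154 and 0.107), and once the trend in GC content and length was removed (0.0565). Hk2 averaged 101 ± 37.2 FPKM after resection with left vagotomy, 38.2 ± 10.3 FPKM after resection and 51.1 ± 17.3 FPKM after sham surgery. Its log2 change against resection was 1.35 (SE 0.35), with a limma adjusted p of 0.0598, of 0.0471 with the replicate block and of 0.0385 once the GC and length trend was removed. In the deposited annotation Hk1 shares its locus with 2210417K05Rik, and Hk2 with Gm17034, and reads of overlapping genes may have been split between them.

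Gpi1, glucose-6-phosphate isomerase, makes fructose 6-phosphate and is the sole gene for its step. Gpi1 (chr7:34201330-34230336, GRCm38) was at 433, 359.9 and 427 FPKM after resection with left vagotomy, at 205, 182 and 151 FPKM after resection and at 260.5, 205 and 189 FPKM after sham surgery. The 3 libraries of resection with left vagotomy were the highest of the 9, and the other 2 groups overlapped. Gpi1 rose 2.27-fold against resection (log2 change 1.18, SE 0.27, limma adjusted p = 0.0425, and 0.0267 with the replicate block). Against sham the log2 change was 0.90 (limma adjusted p = 0.0565), which passed the threshold without resection replicate 1 (0.0481) and once the GC and length trend was removed (0.0337). The call against resection was lost in a fit of only the 6 libraries compared (0.126), without resection replicate 2 or 3 (0.131 and 0.0771), without resection with left vagotomy replicate 1, 2 or 3 (0.0950, 0.0753 and 0.0937) and without sham replicate 1, 2 or 3 (0.0519, 0.0856 and 0.0749). It was kept without resection replicate 1 (0.0450). A copy of Gpi1 elsewhere in the genome, Gm1840, matched it at 90% identity or more. Gm1840 averaged 3.97 FPKM over the 9 libraries, against 268 FPKM for Gpi1. This copy and an overlapping gene model, Gm26762, leave the share of reads of Gpi1 uncertain.

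Phosphofructokinase commits the sugar to glycolysis, and its muscle (Pfkm), liver (Pfkl) and platelet (Pfkp) subunits combine into tetramers. Pfkm, the most abundant, was at 156, 168 and 263 FPKM after resection with left vagotomy, at 178, 95.2 and 243 FPKM after resection and at 228, 189 and 149 FPKM after sham surgery. These ranges overlapped throughout, with limma adjusted p-values of 0.733 to 1.00 over the 3 comparisons. Pfkp averaged 67.5 ± 24.9 FPKM after resection with left vagotomy, 35.3 ± 6.80 FPKM after resection and 31.6 ± 2.88 FPKM after sham surgery. Its 3 libraries of resection with left vagotomy lay above the 6 others, with a log2 change of 0.87 against resection (limma adjusted p = 0.113) and of 1.02 against sham (0.0537, but 0.0461 under upper-quartile scaling, 0.0446 under quantile scaling and 0.0258 once the GC and length trend was removed); Pfkp shares its locus with Pitrm1. Pfkl averaged 39.3 ± 16.8 FPKM after resection with left vagotomy, 21.1 ± 9.74 FPKM after resection and 20.0 ± 9.66 FPKM after sham surgery, with overlapping libraries. The log2 ratio of Pfkm to Pfkl averaged 2.37 ± 0.37 after resection with left vagotomy, 3.03 ± 0.60 after resection and 3.33 ± 0.38 after sham surgery, and that of Pfkm to Pfkp averaged 1.56 ± 0.16, against 2.20 ± 0.42 after resection and 2.56 ± 0.41 after sham surgery. Both were lower in every library of resection with left vagotomy than in any sham library, with differences in means of -0.96 and -1.01 (exact permutation p = 0.1 each, adjusted 0.3). Pfkfb1 to Pfkfb4 make and remove fructose 2,6-bisphosphate, the strongest allosteric activator of phosphofructokinase. The highest of them, Pfkfb2, was at 10.9, 9.70 and 21.6 FPKM after resection with left vagotomy, at 10.7, 18.3 and 21.7 FPKM after resection and at 13.1, 23.3 and 19.2 FPKM after sham surgery. Pfkfb1, Pfkfb3 and Pfkfb4 lay between 1.00 and 4.36 FPKM in every library, and none of the 4 passed the threshold in any comparison.

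Aldolase splits fructose 1,6-bisphosphate, and Aldoa, its muscle isozyme, was at 1054, 775 and 1191 FPKM after resection with left vagotomy, at 1467, 858 and 689 FPKM after resection and at 1332, 914 and 808 FPKM after sham surgery. The group means of 1007 ± 212 FPKM after resection with left vagotomy, 1004 ± 409 FPKM after resection and 1018 ± 277 FPKM after sham surgery differed by less than the spread within any group. Aldoc, the brain isozyme, lay between 1.37 and 10.9 FPKM. Tpi1, triosephosphate isomerase, interconverts the 2 triose phosphates, and was at 824, 670.3 and 841 FPKM after resection with left vagotomy, at 590.3, 282 and 308 FPKM after resection and at 475, 377 and 346 FPKM after sham surgery. All 3 libraries of resection with left vagotomy lay above the other 6. The log2 change of Tpi1 against resection was 1.06 (SE 0.34, limma adjusted p = 0.102), which became 0.0427 without resection replicate 1 and 0.0494 once the GC and length trend was removed. Tpi1 shares its locus with Spsb2.

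Gapdh, the enzyme that oxidises glyceraldehyde 3-phosphate and a common reference gene, went the other way in its means. It was at 96.1, 75.0 and 88.6 FPKM after resection with left vagotomy, at 161, 90.9 and 77.2 FPKM after resection and at 162, 153 and 101 FPKM after sham surgery. Each library of resection with left vagotomy was below each sham library, with a log2 change of -0.65 that did not pass the threshold (limma adjusted p = 0.209). Its level is uncertain, because 162 pseudogenes match its transcript at 90% identity or more over at least 500 bases, and 12 of the matching genes were in the matrix with a summed mean of 56.5 FPKM, against 111.7 FPKM for Gapdh itself. Pgk1, phosphoglycerate kinase, makes the first ATP of the pathway, and was at 93.4, 79.2 and 136 FPKM after resection with left vagotomy, at 99.5, 88.3 and 53.3 FPKM after resection and at 78.1, 84.8 and 99.9 FPKM after sham surgery. Its groups overlapped in every comparison.

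By listed level, phosphoglycerate mutase was almost wholly the muscle isozyme Pgam2, at 724, 624 and 736 FPKM after resection with left vagotomy, at 446, 139 and 315 FPKM after resection and at 418, 313 and 234 FPKM after sham surgery. The lowest library of resection with left vagotomy was above the highest of the 6 others. Its log2 change was 1.36 against resection (SE 0.42, limma adjusted p = 0.0951) and 1.14 against sham (limma adjusted p = 0.103), and the first passed the threshold without resection replicate 1 (0.0484) and once the trend in GC content and length was removed (0.0427). The value against sham passed it in a fit of only the 6 libraries compared (0.0469) and without resection replicate 2 (0.0474). The widespread isozyme Pgam1, with copies elsewhere in the genome, averaged 10.7 ± 2.19 FPKM after resection with left vagotomy, 14.3 ± 4.49 FPKM after resection and 12.0 ± 1.30 FPKM after sham surgery. Those copies leave the level of Pgam1, and a ratio that uses it, uncertain. The log2 ratio of Pgam2 to Pgam1 was 5.95, 6.26 and 5.92 after resection with left vagotomy, 4.53, 3.40 and 4.91 after resection, and 5.06, 4.90 and 4.19 after sham surgery. It was higher in each library of resection with left vagotomy than in any other, by 1.76 on average against resection and by 1.33 against sham (exact permutation p = 0.1 each, adjusted 0.3).

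Enolase makes phosphoenolpyruvate, and its 3 genes gave 3 patterns. Eno3, the muscle isozyme and the most abundant, was at 1483, 1575 and 2056 FPKM after resection with left vagotomy, at 1476, 632 and 3697 FPKM after resection and at 1792, 1560.2 and 1011 FPKM after sham surgery. The resection libraries held both the lowest and the highest value of the 9, and limma's adjusted p was 0.798 or more in each comparison. Eno1, the widespread isozyme, averaged 179 ± 16.7 FPKM after resection with left vagotomy, 121 ± 19.9 FPKM after resection and 102 ± 14.0 FPKM after sham surgery. Its libraries of resection with left vagotomy lay above all others, with a log2 change of 0.81 against sham (limma adjusted p = 0.0661). The log2 ratio of Eno3 to Eno1 averaged 3.24 ± 0.14 after resection with left vagotomy, 3.66 ± 1.18 after resection and 3.80 ± 0.30 after sham surgery. It was lower in every library of resection with left vagotomy than in any sham library, with a difference of -0.56 (exact permutation p = 0.1, adjusted 0.3). Eno1 has 6 similar copies among annotated genes, at 90% identity or more.

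Eno2, known as the neuronal enolase (chr6:124760053-124769673, GRCm38), was at 15.0, 12.3 and 16.4 FPKM after resection with left vagotomy, at 20.5, 11.3 and 7.53 FPKM after resection and at 4.44, 4.65 and 2.64 FPKM after sham surgery. All 6 resected libraries were above all 3 sham libraries, and the 2 resected groups overlapped. Eno2 rose 3.73-fold for resection with left vagotomy against sham (log2 change 1.68, SE 0.34, limma adjusted p = 0.0185). For resection against sham the log2 change was 1.44 (SE 0.34), with a limma adjusted p of 0.167 and a q of 0.00161 in the authors' deposited table. The call against sham was lost without resection with left vagotomy replicate 1 or 3 (limma adjusted p = 0.0503 and 0.0549) and without sham replicate 2 or 3 (0.0700 and 0.0917). Of 5 neuronal markers, 1 (Stmn2) was in the matrix, at 1.77 to 4.84 FPKM after resection with left vagotomy, 2.29 to 3.53 FPKM after resection and 2.32 to 3.31 FPKM after sham surgery. Of 11 listed myeloid markers, 10 were in the matrix, and none was at 0 in every library of a group. Their summed level was 408 to 551 FPKM after resection with left vagotomy. It was 419 to 656 FPKM after resection and 86.7 to 128 FPKM after sham surgery. Of these 10, 6 rose for resection with left vagotomy against sham (2 without sham replicate 2 and 4 without sham replicate 3), beside 5.81% of all tested genes. For resection against sham 3 rose (0 without resection replicate 1 or sham replicate 2, 1 without resection replicate 3 or sham replicate 1), beside 0.287%. For resection with left vagotomy against resection 1 rose and 1 fell, beside 1.97% and 1.55%. Both of those counts were 0 without resection replicate 2, resection with left vagotomy replicate 1 or 3, or sham replicate 2 or 3. Erythroid markers summed to 362 to 655 FPKM after resection with left vagotomy. They summed to 794 to 4352 FPKM after resection and 439 to 1354.5 FPKM after sham surgery. Their highest library, resection replicate 1, was also the highest for Eno2. Summed levels of fibroblast, endothelial and skeletal muscle markers overlapped between all 3 groups. The part of any of these markers in the level of Eno2 was not tested. In whole tissue, fewer cells of a type and less RNA per cell cannot be told apart.

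Pyruvate kinase ends glycolysis and makes its second ATP. Pkm encodes both the M1 and the M2 enzyme by alternative splicing, which a level per gene does not separate. Pkm (chr9:59656368-59679375, GRCm38) was at 884, 843 and 1552 FPKM after resection with left vagotomy, at 447, 157 and 285 FPKM after resection and at 405, 293 and 228 FPKM after sham surgery. The lowest library of resection with left vagotomy was well above the highest of the other 6, and resection and sham overlapped. It rose 3.69-fold against resection (log2 change 1.95, SE 0.43, limma adjusted p = 0.0405, and 0.0284 with the replicate block) and 3.54-fold against sham (log2 change 1.80, SE 0.43, limma adjusted p = 0.0312). For resection against sham the log2 change was -0.14 (limma adjusted p = 1.00). The call against resection was lost in a fit of only the 6 libraries compared (0.128), without resection replicate 2 or 3 (0.141 and 0.0719), without resection with left vagotomy replicate 1, 2 or 3 (0.0774, 0.0727 and 0.109) and without sham replicate 1, 2 or 3 (0.0508, 0.0733 and 0.0746), and kept without resection replicate 1 (0.0327). The call against sham was lost without resection with left vagotomy replicate 1, 2 or 3 (0.0577, 0.0572 and 0.0879) and without sham replicate 2 or 3 (0.120 and 0.136). Over these settings the log2 change against resection stayed between 1.55 and 2.31. Pkm has 4 similar copies among annotated genes, at 90% identity or more, and the highest GC content of the 34 genes, 57.7%.

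**Figure D4:**
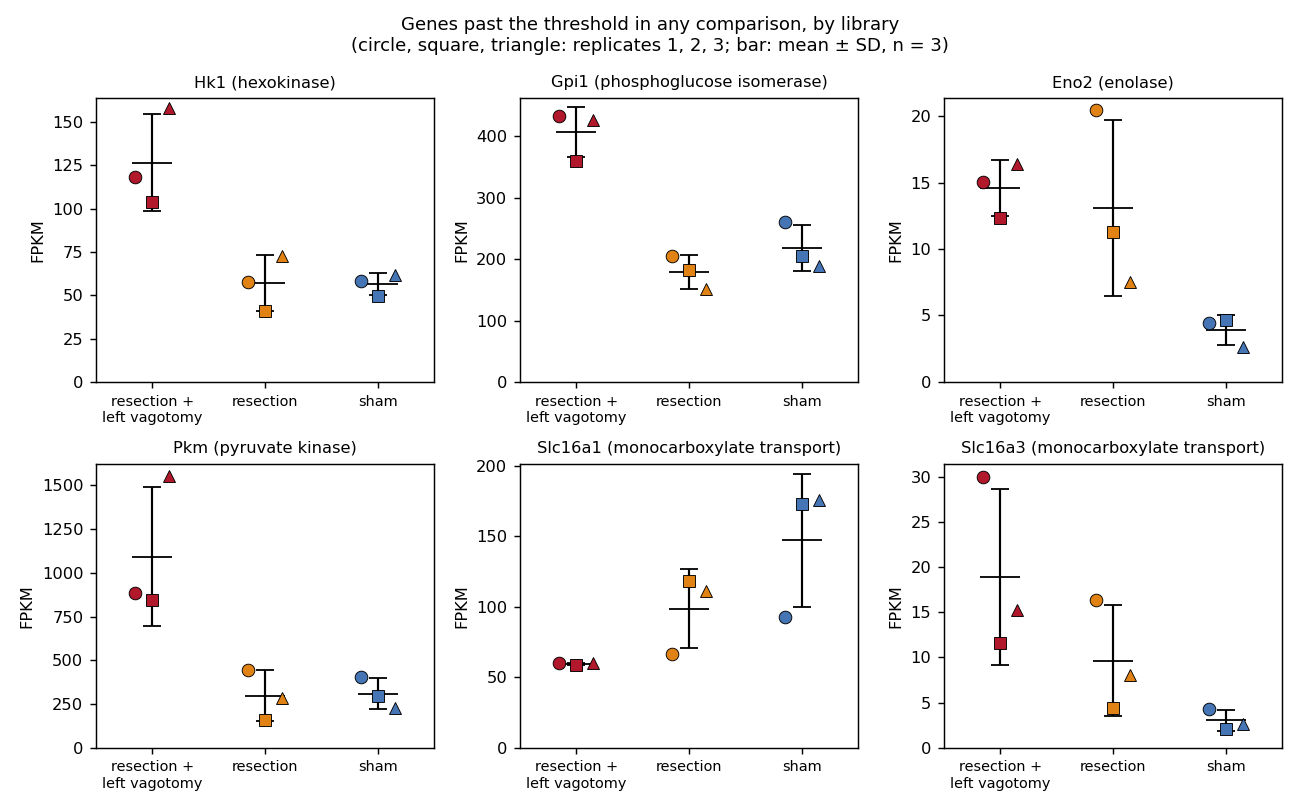
FPKM (vertical axis, from 0) of the 6 genes past the threshold in any comparison, by group, with resection with left vagotomy on the left, resection in the middle and sham on the right; circles, squares and triangles are replicates 1, 2 and 3, and the bars are mean ± SD (n = 3). Hk1, Gpi1 and Pkm are apart in resection with left vagotomy, Eno2 is above sham in both resected groups, and Slc16a1 and Slc16a3 run in opposite directions.

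Lactate dehydrogenase converts pyruvate and lactate into each other; the A subunit is favoured in glycolytic tissue and the B subunit in the heart. Ldhb, the more abundant of the 2, was at 746, 972 and 1342 FPKM after resection with left vagotomy, at 1346, 1129.8 and 1560.3 FPKM after resection and at 1726, 1276 and 1245 FPKM after sham surgery. A pseudogene similar to Ldhb, Gm5514, averaged 45.7 FPKM over the 9 libraries. Ldha averaged 418 ± 119 FPKM after resection with left vagotomy, 368 ± 139.9 FPKM after resection and 262 ± 13.3 FPKM after sham surgery, and neither gene passed the threshold in any comparison. The log2 ratio of Ldha to Ldhb was -1.01, -0.81 and -2.02 after resection with left vagotomy, -2.04, -2.16 and -1.57 after resection, and -2.64, -2.31 and -2.30 after sham surgery. Ldhb exceeded Ldha in all 9 libraries, and by least in 2 libraries of resection with left vagotomy. The ratio was higher in every resected library than in any sham library, by 1.14 on average for resection with left vagotomy and by 0.49 for resection (exact permutation p = 0.1 each, adjusted 0.3). Between resection with left vagotomy and resection it differed by 0.64 (exact permutation p = 0.2).

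The 2 lactate transporters changed in opposite directions between resection with left vagotomy and sham. Slc16a3 (MCT4), known for lactate export from glycolytic cells, was at 30.0, 11.6 and 15.2 FPKM after resection with left vagotomy, at 16.4, 4.43 and 8.09 FPKM after resection and at 4.31, 2.11 and 2.65 FPKM after sham surgery (chr11:120948480-120960868, GRCm38). All 6 resected libraries were above all 3 sham libraries, while the 2 resected groups overlapped. It rose 6.27-fold for resection with left vagotomy against sham (log2 change 2.24, SE 0.45, limma adjusted p = 0.0185). For resection against sham the log2 change was 1.28 (limma adjusted p = 0.534), and for resection with left vagotomy against resection it was 0.96 (0.223, and 0.0379 with the replicate block). The call against sham was lost without resection with left vagotomy replicate 1 (0.0519) and without sham replicate 2 or 3 (0.0892 and 0.0874). The myeloid marker sum given beside Eno2 was also higher in all 6 resected libraries than in any sham library. Between the 2 resected groups it did not follow Slc16a3. The sum was 408 to 551 FPKM with left vagotomy and 419 to 656 FPKM without, where Slc16a3 averaged 18.9 and 9.64 FPKM. Its part in the level of Slc16a3 was not tested.

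Slc16a1 (MCT1), the transporter for lactate uptake in heart muscle, was at 59.9, 58.6 and 60.1 FPKM after resection with left vagotomy, at 66.7, 119 and 111 FPKM after resection and at 92.9, 173 and 176 FPKM after sham surgery (chr3:104638668-104658462, GRCm38). The 3 libraries of resection with left vagotomy lay close together and below the other 6. Slc16a1 fell to 0.404 of its sham level (log2 change -1.24, SE 0.33, limma adjusted p = 0.0417). Against resection its log2 change was -0.68 (limma adjusted p = 0.234), and for resection against sham it was -0.56 (1.00). The call against sham was lost without resection replicate 3 (0.0539), without resection with left vagotomy replicate 1, 2 or 3 (0.0868, 0.0916 and 0.0901) and without sham replicate 2 or 3 (0.172 and 0.157). Its transcript has the lowest GC content of the 34 genes, 42.9%, and after removal of the GC and length trend its log2 change against sham was -1.02 (limma adjusted p = 0.0102). The log2 ratio of Slc16a3 to Slc16a1 was -1.0, -2.33 and -1.98 after resection with left vagotomy, -2.02, -4.74 and -3.78 after resection, and -4.43, -6.36 and -6.05 after sham surgery. Slc16a1 was the more abundant in all 9 libraries, and the ratio of resection with left vagotomy exceeded that of sham by 3.84 with no overlap (exact permutation p = 0.1, adjusted 0.3). The 2 transcripts lie far apart in GC content, at 56.6% for Slc16a3 and 42.9% for Slc16a1. With the GC and length trend removed, their log2 changes against sham were 1.91 and -1.02, in place of 2.24 and -1.24, both nearer to no change.

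**Figure D5:**
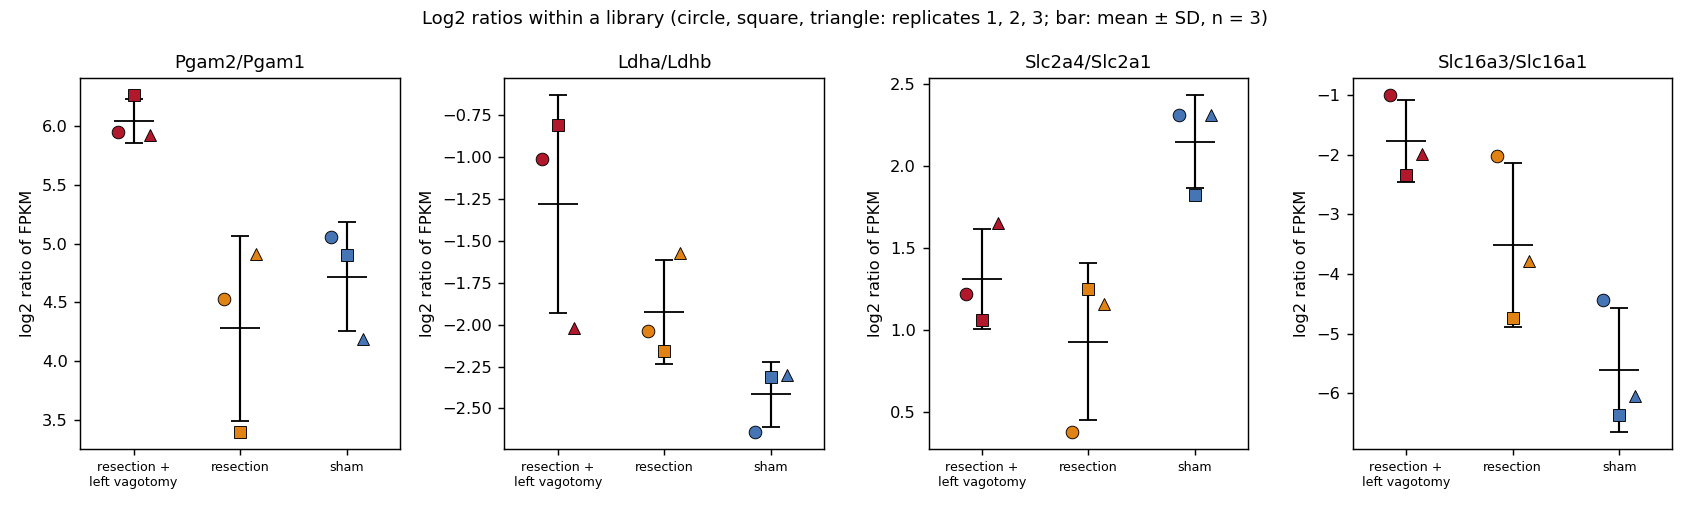
Log2 ratio of FPKM of 2 isozymes or transporters within each library (vertical axis), by group, with resection with left vagotomy on the left and sham on the right of each panel; symbols are replicates 1, 2 and 3 and bars are mean ± SD (n = 3). Pgam2/Pgam1 is apart in resection with left vagotomy (5.92 or more), and Ldha/Ldhb and Slc2a4/Slc2a1 separate both resected groups from sham.

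Pyruvate dehydrogenase takes pyruvate into oxidation, and its kinases Pdk1 to Pdk4 switch it off by phosphorylation of the E1 alpha subunit, which Pdha1 encodes. Pdhb, the E1 beta subunit and the higher of the 2 enzyme genes, was at 405, 434 and 548 FPKM after resection with left vagotomy, at 581, 664 and 580.4 FPKM after resection and at 582, 663 and 682 FPKM after sham surgery. Its libraries of resection with left vagotomy lay below all 6 others, with a log2 change of -0.41 against resection (limma adjusted p = 0.392) and -0.48 against sham (0.262). Pdha1 averaged 251 ± 12.1 FPKM after resection with left vagotomy, 286 ± 48.0 FPKM after resection and 331 ± 51.7 FPKM after sham surgery. Pdk2, the most abundant kinase, was at 224, 172 and 136 FPKM after resection with left vagotomy, at 146, 98.2 and 94.6 FPKM after resection and at 229, 97.9 and 87.4 FPKM after sham surgery, with overlapping groups. Pdk3 averaged 13.7 ± 3.35 FPKM after resection with left vagotomy, 26.7 ± 7.69 FPKM after resection and 28.4 ± 3.24 FPKM after sham surgery, with the first group below every other library. Its log2 change was -0.90 against resection (limma adjusted p = 0.102) and -1.02 against sham (0.0503). That last value passed the threshold without resection replicate 1, 2 or 3 (0.0467, 0.0490 and 0.0418), in a fit of only the 6 libraries compared (0.0420) and once the trend in GC content and length was removed (0.0328).

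Pdk4, the kinase induced by fasting and fatty acids, averaged 76.9 ± 37.8 FPKM after resection with left vagotomy, 96.9 ± 34.7 FPKM after resection and 35.4 ± 17.2 FPKM after sham surgery. Its 3 resection libraries were above the 3 sham libraries, with a log2 change of 1.47 (SE 0.48, limma adjusted p = 0.451). The log2 ratio of Pdk4 to Pdk1 was higher in every resection library than in any sham library, with a difference of 1.37 (exact permutation p = 0.1, adjusted 0.3). The gap was narrow, 0.08 in resection replicate 3 against 0.05 in sham replicate 3. For the ratio of Pdk4 to Pdk2 resection and sham overlapped, with a difference of 1.67 (exact permutation p = 0.2, adjusted 0.388). Pdk1 ranged from 33.98 to 99.7 FPKM over the 9 libraries, and its groups overlapped.

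The authors' deposited tables compare 2 of the 3 pairs of groups by Cuffdiff. For resection with left vagotomy against resection they called 9 of the 34 genes higher at q of at most 0.05 (Hk1, Hk2, Gpi1, Pfkl, Pfkp, Tpi1, Pgam2, Pkm and Slc16a3) and 2 lower (Slc16a1 and Pdk3), where 8.52% and 8.56% of all genes tested in that table were called. At a q of at most 0.01 the authors' deposited table called 5 and 1. For resection against sham the authors' deposited table called 4 higher (Slc2a1, Eno2, Slc16a3 and Pdk4) and 0 lower, beside 4.18% and 1.93% of all genes. In the authors' deposited table for resection with left vagotomy against resection, Pkm and Pgam2 had the lowest q of the 34 genes, 0.000995.

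Around the pathway, 76 of 84 genes of a connected list (other glycolysis and transport genes, glycogen, pentose phosphate, hexosamine and serine branches, gluconeogenesis, mitochondrial pyruvate entry, NADH shuttles and regulators) were in the matrix. For resection with left vagotomy against resection 1 rose (Slc25a12) and 1 fell (Adpgk), where 1.97% and 1.55% of all tested genes did. At an unadjusted p under 0.05 limma had 9 of the 76 higher and 14 lower, against 13.1% and 11.1% of all tested genes. The authors' deposited table called 11 higher and 12 lower, against 8.52% and 8.56% of all genes tested in that table. With the replicate block 4 rose and 4 fell, where 1277 of all tested genes were called in place of 466. Both counts were 0 without resection replicate 2, without any 1 library of resection with left vagotomy, and without sham replicate 2 or 3. For resection against sham limma called 0, where 0.287% of all tested genes rose and 0.00755% fell. At an unadjusted p under 0.05 it had 4 higher and 1 lower, against 3.68% and 2.21% of all tested genes. The authors' deposited table called 5 higher and 0 lower, against 4.18% and 1.93% of all genes tested in that table. In the comparison of resection with left vagotomy with sham 5 rose (Hk3, Emb, Pygl, Pck2 and Slc25a12) and 4 fell (Adpgk, Ugp2, Mpc1 and Mpc2), where 5.81% and 4.26% of all tested genes did. These shares are close to those of the list in that comparison, so those limma counts do not set it apart. Without sham replicate 2 the counts were 0 and 0, without sham replicate 3 they were 1 and 0, and without 1 library of resection with left vagotomy 1 or 2 each way. The median log2 change over the 76 genes was -0.01 for resection with left vagotomy against resection and -0.06 against sham.

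Mpc1 and Mpc2 form the carrier that takes pyruvate into mitochondria. Mpc1 was at 36.4, 35.3 and 35.9 FPKM after resection with left vagotomy, at 96.2, 101 and 44.7 FPKM after resection and at 140.5, 103 and 151 FPKM after sham surgery. Its libraries of resection with left vagotomy were the 3 lowest. Mpc1 fell against sham by 1.83 on the log2 scale (limma adjusted p = 0.0135, but 0.0514 and 0.0698 without sham replicate 2 or 3). Mpc2 fell against sham by 1.80 (limma adjusted p = 0.0320), a call lost without resection with left vagotomy replicate 1 or 2 (0.0875 and 0.0795) and without sham replicate 2 or 3 (0.136 and 0.139). Slc25a12 is the aspartate-glutamate carrier of the malate-aspartate shuttle, which passes the electrons of NADH from glycolysis to mitochondria. It was at 197, 149.6 and 148 FPKM after resection with left vagotomy, at 67.9, 55.1 and 83.1 FPKM after resection and at 93.3, 72.2 and 78.4 FPKM after sham surgery. Slc25a12 rose against resection (log2 change 1.26, limma adjusted p = 0.0349), a call lost in a fit of only the 6 libraries compared (0.116), without resection replicate 2 (0.130), without resection with left vagotomy replicate 1, 2 or 3 (0.0876, 0.0689 and 0.0729) and without sham replicate 2 or 3 (0.0706 and 0.0688).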

How the data were processed

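RNA-seq was measured in 9 libraries, 3 per group as the labels name them. The submitters' processing notes name the genome GRCm38 and the tools Cuffdiff 2.1.1, Cufflinks 2.1.1 and TopHat2 2.0.9. The authors deposited a matrix of FPKM with a pseudocount of 1 added, which was subtracted here. The authors' deposited Cuffdiff tables hold q-values and p-values beside group FPKM for 2 comparisons. No read counts were used, so depth and counting error are unknown. Log2(FPKM + 1) of the 13249 genes that averaged 1 FPKM or more was fitted with limma 3.58.1 in R 4.3.3, with all 9 libraries, 1 mean per group and a mean-variance trend. Adjusted p-values are Benjamini-Hochberg over all tested genes, with a threshold of 0.05. Ratios within a library were compared by exact permutation tests (scipy 1.17.1), whose smallest two-sided p with 3 against 3 is 0.1. There were 11 ratios and 33 comparisons, and the smallest adjusted p was 0.3. For the ratios of Hk2 to Hk1 and of Aldoa to Aldoc the groups overlapped in every comparison. The ratios were taken without removal of the GC and length trend. The procedure was tested on simulated data.

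The 34 genes, the connected list and the marker lists were chosen with earlier results of these data known. Values in every library are given for each gene past the threshold in any comparison or in the F-test and for the gene with the highest mean of its step, and means or ranges for the others. Genes outside the 34 are named only from the fixed lists. Same-numbered libraries of resection with left vagotomy and resection deviated together from their group means (r across genes 0.199, 0.141 and 0.117), so the numbers were taken to pair them and blocked values stand beside that comparison. This pairing comes from the data and from the replicate numbers in the sample titles. Libraries of unlike number could also deviate together, as resection replicate 2 and sham replicate 3 did (r 0.335). The replicate 1 libraries had similar GC slopes, 0.376 for resection with left vagotomy, 0.372 for resection and 0.297 for sham. The part of GC content in these r values was not tested. The block was fitted over all 9 libraries, so it ties the sham libraries by number as well. The labels give no shared litter or day, and the libraries titled replicate 3 carry other numbers in the deposited column names (except that of resection with left vagotomy), so the blocked values rest on a weak pairing. Alternatives were a pseudocount of 0.1, no filter, upper-quartile and quantile scaling, the replicate block, only the 6 libraries compared, and leaving out each library; removal of a GC and length trend (splines, GENCODE M21 transcripts) was added after seeing the data. Similar genes were found with minimap2, at 90% identity over at least 500 bases. By that rule 12 of the 34 genes had one: Gpi1, Pfkp, Pfkfb2, Aldoa, Gapdh, Pgk1, Pgam1, Eno1, Pkm, Ldhb, Pdha1 and Pdhb. Another gene model shared the listed locus of 12 genes: Slc2a1, Slc2a3, Hk1, Hk2, Gpi1, Pfkm, Pfkp, Pfkfb1, Pfkfb2, Tpi1, Pdk2 and Pdha1. The limit on read assignment given for Hk1 and Gpi1 holds for all of these genes.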

Additional observations from a re-analysis of the deposited data

How the results depend on the processing

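Of 1632 recomputed changes of the 34 genes (102 changes under 16 alternatives), 1489 kept their side of the threshold and, where called, their direction, 43 lost the call, 25 gained one and none reversed; the other 75, not called either way, changed sign. The counts of all tested genes called moved most. With the GC and length trend removed, chosen after seeing the data, they were 1328 for resection with left vagotomy against resection, 85 for resection against sham, and 2323 between resection with left vagotomy and sham, in place of 466, 39 and 1334. With only the 6 libraries compared they were 29 and 13 in the first 2 comparisons, and a pseudocount of 0.1 gave 66 for resection against sham. Leaving out 1 library gave 42 to 591, 11 to 59 and 100 to 1701. Of the 34 genes, those higher against resection numbered 5 with the trend removed, 0 with 6 libraries and 0 to 4 with 1 library left out; those higher against sham 0 to 6; those lower against sham 2 with the trend removed or with 6 libraries and 0 to 2 with 1 left out. The F-test passed for 2 genes under upper-quartile scaling and for 0 to 5 with 1 left out. The authors' calls against resection at the stricter q were 5 and 1.

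With the replicate number as a block, 1277 and 2413 of all tested genes were called for resection with left vagotomy against resection and against sham, and 5 and 7 of the 34 genes were higher, 0 and 2 lower, with 7 passing the F-test. Same-numbered libraries of resection with left vagotomy and sham (r 0.186, 0.170 and -0.0193) and of resection and sham (0.498, 0.197 and 0.0129) did not all deviate together, so there the numbers are not taken to pair them. The block was nonetheless fitted over all 9 libraries, so every blocked value also ties the sham libraries by number. Of the 11 calls in the connected list, each was lost under 2 to 8 of the 16 alternatives and none reversed. The causes were not tested. Depth is unknown, so the counting error of the low genes (Pfkfb1, Pfkfb3, Pfkfb4, Slc2a3 and Aldoc) could not be given.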
